A study of Mus musculus with 4 samples.

Results

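Complement genes and receptors were followed as 9 of the 53647 genes of the count tables, C1qa, C1qb, C1qc, C3, C4b, Cfb, Cfp, C3ar1 and C5ar1, each taken by its symbol and each matching 1 gene. Single cells of the injured spinal cord of aged C57BL/6J mice were sequenced 28 days after a spinal cord injury. The groups were mice given an anti-CD8 antibody (CD8 is a surface protein of cytotoxic T lymphocytes), with 2 libraries, and mice given IgG as the control antibody, with 2 libraries. All 4 libraries came from injured cords of aged mice, so neither age nor injury was compared. Each library was made from a 2 mm piece of cord holding the lesion, from perfused animals, after enzymatic dissociation and depletion of myelin debris with beads. The sources used here give neither the number and sex of the mice behind a library nor the antibody dose, and the p-values below measure the spread between these libraries.

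Complement is a cascade of plasma and tissue proteins that marks targets for uptake by phagocytes and for lysis. The classical pathway starts when C1q, built from the chains encoded by C1qa, C1qb and C1qc, binds a target and activates the cleavage of C4 and then of C3. The alternative pathway amplifies C3 cleavage with factor B (Cfb) and is stabilised by properdin (Cfp). The small fragments released from C3 and C5 act on myeloid cells through the receptors encoded by C3ar1 and C5ar1, and in the central nervous system microglia are known as the main source of C1q.

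Promoters are shown for C1qb and C1qc, which encode chains of the same protein, and for C3, the protein cleaved after C1q is activated. Promoter sequences of RefSeq (GRCm38.p6, 250 bases before to 50 bases after the start of the gene) were found for 6 of the 9 genes. Capitals mark the core of the binding motif of PU.1, a transcription factor of the myeloid lineage (GAGGAA, searched on both strands), and, in C3, a C/EBP motif (TTGCNNAA, searched on both strands). The sequences read 5′ to 3′ on the strand of the gene, C1qb from chr4:136886151-136886450, C1qc from chr4:136892865-136893164 and C3 from chr17:57228087-57228386, all on the minus strand.
C1qb: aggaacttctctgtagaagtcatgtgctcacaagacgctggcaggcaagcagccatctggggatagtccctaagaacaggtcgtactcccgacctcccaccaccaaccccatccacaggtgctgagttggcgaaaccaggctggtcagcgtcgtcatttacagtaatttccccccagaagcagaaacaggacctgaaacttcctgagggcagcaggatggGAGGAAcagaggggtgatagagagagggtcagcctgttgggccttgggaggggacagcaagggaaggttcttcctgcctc
C1qc: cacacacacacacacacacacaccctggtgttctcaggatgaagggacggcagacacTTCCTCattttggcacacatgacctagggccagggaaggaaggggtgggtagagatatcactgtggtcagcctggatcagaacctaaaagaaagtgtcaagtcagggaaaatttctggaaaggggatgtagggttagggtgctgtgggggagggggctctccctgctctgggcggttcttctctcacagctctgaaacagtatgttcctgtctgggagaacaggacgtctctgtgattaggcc
C3: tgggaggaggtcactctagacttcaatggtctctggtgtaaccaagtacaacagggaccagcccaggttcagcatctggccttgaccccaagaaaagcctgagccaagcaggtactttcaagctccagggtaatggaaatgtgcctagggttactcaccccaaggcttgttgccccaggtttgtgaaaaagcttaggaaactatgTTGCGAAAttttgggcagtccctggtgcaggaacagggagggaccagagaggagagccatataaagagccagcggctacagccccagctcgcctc
The PU.1 core lay 30 bases before the start in C1qb and 193 bases before it, on the other strand, in C1qc. The C/EBP motif of C3 began 45 bases before the start. Of the other promoters found, that of Cfp held 2 PU.1 cores, both after the start, and those of C3ar1 and C5ar1 held 0. These letters are common, since the PU.1 core was present in 28.3% and the C/EBP motif in 10.8% of 32851 promoters of this length, so a match describes the sequence and shows no binding.

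After filtering, 7481 and 7816 cells of the anti-CD8 libraries and 6108 and 6290 cells of the IgG libraries remained. The median cell held 17284 and 18365.5 UMIs (unique molecular identifiers, each standing for 1 captured transcript) in the anti-CD8 libraries and 21950.5 and 20469.5 in the IgG libraries. Levels are in CPM, the UMIs of a gene as counts per 1e6 UMIs of the same cells and library. Cell classes were clusters named by marker genes, with every complement gene left out of the clustering, and a class name such as microglia stands for a microglia-like cluster group. T cells held Cd8a, a chain of the target of the antibody, at 176 and 102 CPM in anti-CD8 libraries and 332 and 242 CPM in IgG libraries, so the groups did not overlap. IgG replicate 1 stood apart: cells of an interferon-high myeloid cluster made up 7.50% of its cells, against 0.749% and 1.48% in the anti-CD8 libraries and 1.26% in IgG replicate 2. Between 7 and 23 cell barcodes were shared by any pair of libraries.

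C1q transcripts were abundant in every myeloid class, a term used here without the 16 neutrophils. Microglia held C1qa at 7769 and 7535 CPM in anti-CD8 libraries and at 7899.6 and 7657 CPM in IgG libraries. In Spp1-high myeloid cells, named for a marker list that includes the osteopontin gene Spp1 (among the leading genes of clusters 3 and 11 but not of cluster 1), C1qa stood at 6634 and 6081 CPM in anti-CD8 libraries and 6623 and 6480.03 CPM in IgG libraries. Macrophages, led by F13a1 and Mrc1, had 4399 and 3391 CPM in anti-CD8 libraries and 3201 and 3882 CPM in IgG libraries, so C1qa was lower in every library of macrophages than in any library of microglia. Microglia supplied 46.0% of all C1qa UMIs, Spp1-high cells 31.2% and the unnamed cytokine-rich cluster 4 (led by Il12b and Il23a) 11.5%.

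All 3 chains were highest in the interferon-high cluster, the shallow unnamed cluster 10 and microglia, and of the myeloid classes lowest in macrophages. The order of Spp1-high cells, cluster 4 and proliferating myeloid cells between them differed from chain to chain. C1qb was at 6212 and 5794 CPM in microglia of anti-CD8 libraries and 6163 and 6009 CPM in those of IgG libraries. In macrophages it was at 4605 and 3788 CPM in those of anti-CD8 libraries and 3666 and 4249 CPM in those of IgG libraries. C1qc was at 4171 and 3956 CPM in microglia of anti-CD8 libraries and 4268 and 4216 CPM in those of IgG libraries. Across the 12 named classes of 20 or more cells the chains were the genes most like each other, with a Pearson correlation of the log2 mean CPM of 0.998 to 0.999 among 12318 genes. This describes 12 points that share the same libraries. Among the microglial clusters C1qa was lowest in cluster 5, between 6659 and 7070.3 CPM over the 4 libraries, and highest in cluster 13, led by the microglial genes Crybb1 and P2ry12, between 9018 and 10080.1 CPM.

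The balance of the chains differed between macrophages and the other myeloid classes. A UMI marks the 3′ end of 1 transcript and is not divided by gene length, but genes may be captured unequally, so the ratio of C1qa to C1qb UMIs was compared between classes only. It was 0.955 and 0.895 in macrophages of anti-CD8 libraries and 0.873 and 0.914 in those of IgG libraries. Microglia had 1.25 and 1.30 in anti-CD8 libraries and 1.28 and 1.27 in IgG libraries, and Spp1-high cells had 1.29 and 1.33 in anti-CD8 libraries and 1.26 and 1.28 in IgG libraries. No library of macrophages reached the ratio of any library of either class. Classes come from clustering these cells, so these differences are described without a test. At a clustering resolution of 2 the ratio of the macrophages moved toward 1, in a smaller class of 114 and 135 cells in anti-CD8 libraries and 54 and 88 cells in IgG libraries. It had C1qa at 4656 and 4315 CPM in anti-CD8 libraries and 3502 and 4687 CPM in IgG libraries. Its C1qb was at 4495 and 4436 CPM in anti-CD8 libraries and 3580.2 and 4647 CPM in IgG libraries.

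**Figure D1:**
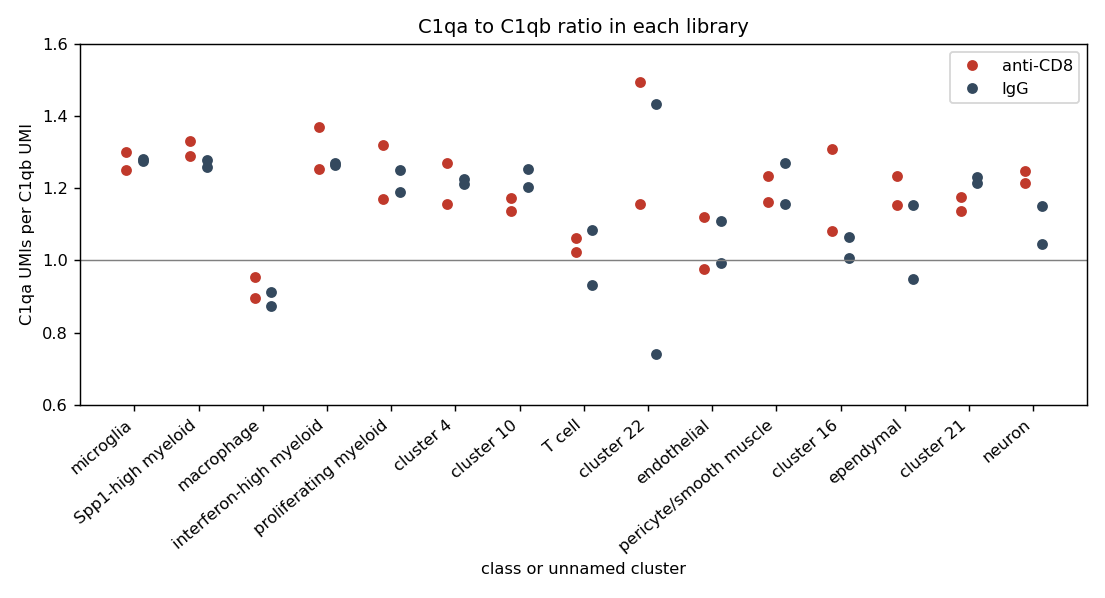
C1qa UMIs per C1qb UMI (vertical axis, from 0.6 to 1.6, with a line at 1) in each library (points; anti-CD8 left and red, IgG right and dark blue) of each class or unnamed cluster. The 4 macrophage libraries lie between 0.873 and 0.955, below every library of microglia and of Spp1-high myeloid cells.

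Nearly every microglial cell carried C1q. With each cell thinned to 2000 UMIs, C1qa was found in 99.0% and 98.7% of microglia of anti-CD8 libraries and 98.7% and 98.9% of those of IgG libraries. All 3 chains were found together in 97.4% and 97.4% of microglia of anti-CD8 libraries and 97.2% and 97.2% of those of IgG libraries. In macrophages the share was lower, with 90.7% and 88.2% of macrophages of anti-CD8 libraries and 87.1% and 89.4% of those of IgG libraries. T cells, which are not known to make C1q, gave the background. There C1qa was found in 21.1% and 28.0% of T cells of anti-CD8 libraries and 23.6% and 22.3% of those of IgG libraries. All 3 chains were found in 2.32% and 5.86% of T cells of anti-CD8 libraries and 2.15% and 1.61% of those of IgG libraries, far below both myeloid classes. The median depth before thinning was 16156 and 17308 UMIs in microglia of anti-CD8 libraries and 20547 and 19877 in those of IgG libraries. T cells were shallower, with 5918.5 and 6621.5 UMIs in those of anti-CD8 libraries and 7198.5 and 6939 in those of IgG libraries. Thinning left out 42 and 40 microglia of anti-CD8 libraries and 43 and 16 of IgG libraries.

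C3, the protein on which all complement pathways meet, was read at a low level in all myeloid classes. Microglia had 40.7 and 33.8 CPM in anti-CD8 libraries and 42.7 and 34.2 CPM in IgG libraries, and macrophages had 30.6 and 26.9 CPM in anti-CD8 libraries and 17.5 and 29.7 CPM in IgG libraries. At 2000 UMIs a C3 UMI was found in 6.94% and 5.88% of microglia of anti-CD8 libraries and 7.14% and 6.49% of those of IgG libraries. The background was 0.258% and 0.418% of T cells of anti-CD8 libraries and 0.613% and 0.147% of those of IgG libraries. Without thinning the share of microglia was 38.0% and 34.8% in anti-CD8 libraries and 44.0% and 38.9% in IgG libraries. C3 was also read outside the myeloid classes. Ependymal cells, which line the central canal, had 45.4 and 15.6 CPM in anti-CD8 libraries and 12.9 and 37.5 CPM in IgG libraries. The unnamed cluster 21, with Slc1a2 of astrocytes and Olig1 of the oligodendrocyte lineage among its leading genes, had 101 and 153 CPM in anti-CD8 libraries and 9.15 and 160.1 CPM in IgG libraries. There IgG replicate 1 rested on 3 C3 UMIs in 20 cells, so the spread within the IgG group exceeded the difference between the group means.

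C4b, which encodes the mouse C4 cleaved by the classical pathway, was highest outside the immune cells. Cluster 21 held 320.4 and 226 CPM in anti-CD8 libraries and 229 and 411 CPM in IgG libraries, above every library of every other class. Ependymal cells had 53.1 and 33.6 CPM in anti-CD8 libraries and 29.6 and 42.4 CPM in IgG libraries, and macrophages 26.3 and 28.9 CPM in anti-CD8 libraries and 17.7 and 23.3 CPM in IgG libraries. At a clustering resolution of 2 the smaller macrophage class held more C4b in every library, 90.7 and 97.6 CPM in anti-CD8 libraries and 65.0 and 90.6 CPM in IgG libraries. Microglia had 10.6 and 11.3 CPM in anti-CD8 libraries and 7.08 and 9.26 CPM in IgG libraries, and because they were the most numerous class they supplied 33.9% of all C4b UMIs. Within microglia, clusters 0 and 13 had more C4b than clusters 2, 5 and 8 in each of the 4 libraries. C4b shares most of its sequence with C4a, which had 0.111 ± 0.0193 CPM over all cells (SD, 4 libraries), and how reads of the pair were divided is not stated in the sources used here.

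Of the alternative pathway genes, Cfb was close to the limit of detection, and Cfp was low in every class of 20 or more cells but cluster 22. Cfb totalled 29 and 37 UMIs in all cells of the anti-CD8 libraries and 47 and 41 UMIs in those of the IgG libraries. Endothelial cells supplied 41.6% of them, with 16 and 7 UMIs in anti-CD8 libraries and 23 and 18 UMIs in IgG libraries. Cfp was found at 60.7 and 102 CPM in the unnamed cluster 22 of anti-CD8 libraries and at 66.3 and 131 CPM in that of IgG libraries. That cluster, led by the immunoglobulin gene Igkc and by Cd209a of dendritic cells, had more Cfp in every library than any other class of 20 or more cells. Macrophages followed with 7.13 and 3.53 CPM in anti-CD8 libraries and 5.36 and 4.93 CPM in IgG libraries, while microglia stayed below 1 CPM in all 4 libraries.

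C3ar1, the receptor for the C3a fragment, was read in all myeloid classes but the neutrophils. Microglia had 351 and 358 CPM in anti-CD8 libraries and 321 and 337 CPM in IgG libraries. Macrophages had 260.2 and 244 CPM in anti-CD8 libraries and 287 and 255 CPM in IgG libraries, and Spp1-high cells 227 and 219.7 CPM in anti-CD8 libraries and 237 and 231 CPM in IgG libraries. At 2000 UMIs it was found in 48.1% and 49.1% of microglia of anti-CD8 libraries and 46.5% and 47.7% of those of IgG libraries. T cells gave 0.773% and 1.26% of cells of anti-CD8 libraries and 0.920% and 1.03% of those of IgG libraries. Its level across the 12 named classes was most like those of Pla2g15 (r = 0.996) and Cd33 (r = 0.995).

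C5ar1, the receptor for the C5a fragment, was lower in Spp1-high cells than in microglia. Microglia had 213 and 225 CPM in anti-CD8 libraries and 172 and 189 CPM in IgG libraries, and cluster 4 had 200.4 and 200.1 CPM in anti-CD8 libraries and 206 and 193 CPM in IgG libraries. Spp1-high cells had 88.9 and 68.4 CPM in anti-CD8 libraries and 88.6 and 72.9 CPM in IgG libraries, below every library of microglia. Within microglia the range was wide. Cluster 0, led by Crybb1 and Slc2a5, was at 338 and 361 CPM in anti-CD8 libraries and 298 and 311 CPM in IgG libraries. Cluster 8 was at 102 and 90.5 CPM in anti-CD8 libraries and 83.6 and 87.7 CPM in IgG libraries. At 2000 UMIs C5ar1 was found in 31.6% and 32.3% of microglia of anti-CD8 libraries and 25.9% and 30.8% of those of IgG libraries. In T cells it was found in 0.515% and 0.837% of cells of anti-CD8 libraries and 0.613% and 0.293% of those of IgG libraries. Without thinning the share of microglia was 75.1% and 77.0% in anti-CD8 libraries and 76.8% and 78.0% in IgG libraries. Wdfy4 was among the genes most like C5ar1 across the classes (r = 0.993). Those most like C3 were Rnf13 (r = 0.976) and Batf3 (r = 0.975), and those most like C4b were Por (r = 0.898) and Selenbp1 (r = 0.876). Cfb (Kdr, r = 0.886, and Ifi203-ps, r = 0.882) and Cfp (St18, r = 0.777, and Snx16, r = 0.737) did not reach 20 CPM in any named class, so their likeness rests on few UMIs.

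**Figure D2:**
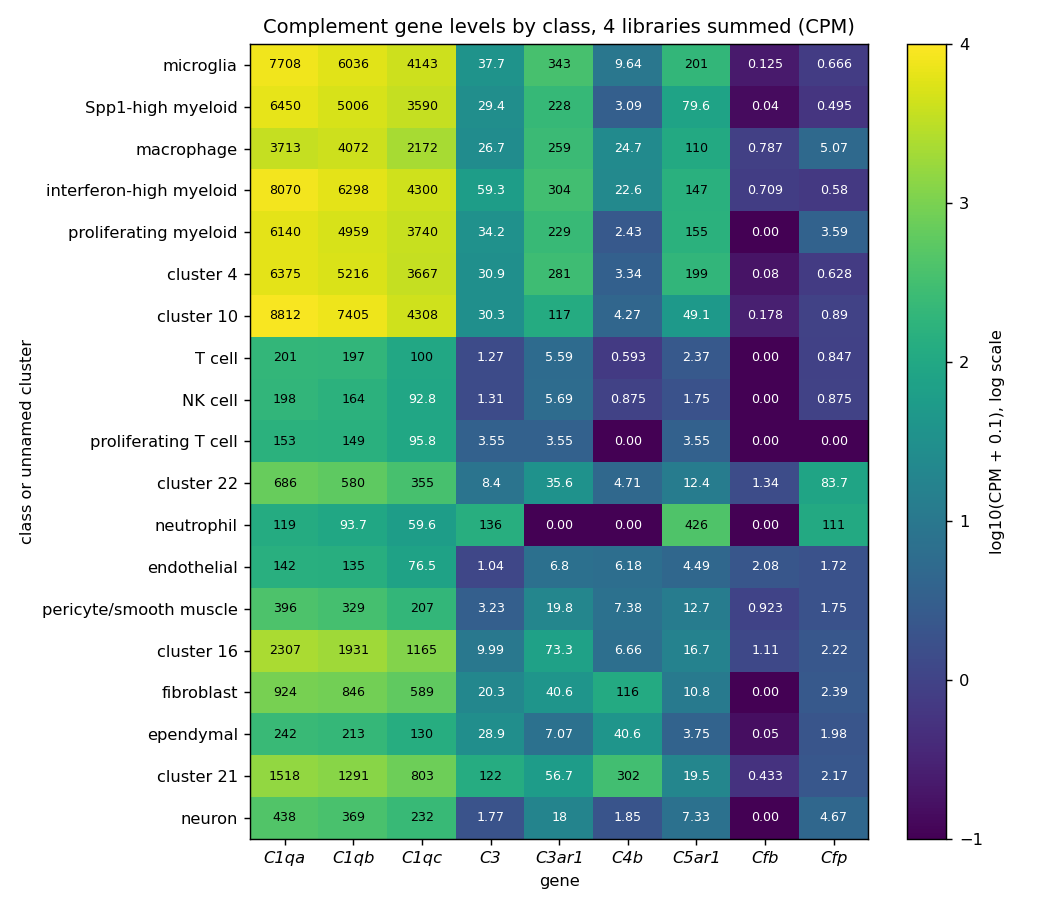
Level of the 9 genes (columns) in each class or unnamed cluster (lines of the map) over the UMIs of the 4 libraries together, in CPM, with colour on a log10 scale. C1q chains are high in all myeloid classes but the 16 neutrophils, C4b is highest in cluster 21 and Cfp in cluster 22 and in the neutrophils.

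Whether the anti-CD8 antibody changed the level of these genes was asked first in all cells of a library together, where fewer cells of a type and less RNA per cell cannot be told apart. None of the 9 genes passed edgeR's quasi-likelihood test at an adjusted p under 0.05 (Benjamini-Hochberg over 23675 genes), and 0% of all genes passed. At an unadjusted p under 0.05 the test called 996 genes, none of them among the 9, and DESeq2 called 65 genes at its adjusted p. C1qa had 5694 and 5767 CPM in anti-CD8 libraries and 6089 and 5604 CPM in IgG libraries, a log2 fold change (anti-CD8 over IgG) of -0.07 ± 0.11 (SE). C5ar1 had 132 and 138 CPM in anti-CD8 libraries and 118 and 117 CPM in IgG libraries, a log2 fold change of 0.15 ± 0.07 (adjusted p = 0.988). Groups did not overlap for 5 of the 9 genes, with C3ar1, C4b and C5ar1 higher and C1qc and Cfb lower in both anti-CD8 libraries, where 34.8% of all genes did not overlap. The median log2 fold change was -0.06 over the 9 genes and 0.0034 over all genes tested.

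In microglia none of the 8 genes tested was called, where 0.0521% of 17275 genes were. The 3 chains of C1q were close to 0: C1qa by -0.07 ± 0.06, C1qb by -0.07 ± 0.07 and C1qc by -0.11 ± 0.06 (log2, SE). C5ar1 was higher in both anti-CD8 libraries, as the values above show, by 0.23 ± 0.07, with an unadjusted p of 0.00574 and an adjusted p of 0.395. Without the filter on low expression it was called (adjusted p = 0.0485). In that fit 184 genes were called higher and 176 lower of 29600 tested, against 4 and 5 of 17275 with the filter. C4b was higher in both as well, by 0.37 ± 0.12, with an unadjusted p of 0.0129 and an adjusted p of 0.476. C3ar1 (0.06 ± 0.06) and C3 (-0.09 ± 0.11) differed by about their standard errors or less. At an unadjusted p under 0.05 the test called 1410 genes, 2 of them members, and DESeq2 called 57 genes, none of them members. Of the 8 genes 4 did not overlap between groups, C3ar1, C4b and C5ar1 higher and C1qc lower, where 41.3% of all genes did not, and the median was -0.0034 over the 8 genes and -0.00083 over all genes.

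The makeup of the microglia moved beside the C5ar1 level. Cluster 0, which had the most C5ar1, held 38.6% and 39.4% of microglia in anti-CD8 libraries and 27.4% and 37.6% in IgG libraries, and its part in the C5ar1 difference was not tested. Within clusters C5ar1 was higher in both anti-CD8 libraries in cluster 0 and cluster 2 (214 and 208 CPM in anti-CD8 libraries, 185 and 169 CPM in IgG libraries) and in cluster 8. The groups overlapped in cluster 5 (106 and 116 CPM in anti-CD8 libraries, 123 and 106 CPM in IgG libraries) and in cluster 13. C4b was higher in both anti-CD8 libraries in clusters 2, 5, 8 and 13 and overlapped in cluster 0. Its difference was 0.59 ± 0.23 in cluster 2, 0.59 ± 0.21 in cluster 5 and 0.63 ± 0.23 in cluster 8, with adjusted p-values of 0.362, 0.452 and 0.613. The share of all genes without overlap was not worked out for single clusters, and in microglia as a whole it was 41.3%. The clusters hold cells of the same 4 libraries, so they are not separate repeats of the comparison. With the cells of the interferon-high cluster added to microglia, C4b differed by 0.15 (unadjusted p = 0.149), and without IgG replicate 1 by 0.20 (unadjusted p = 0.128). None of the 9 genes was called by edgeR's test in any of the 8 microglial and Spp1-high clusters tested one by one. Of all genes 0.014%, 0.354%, 0.138%, 0% and 0.00939% were called in microglial clusters 0, 2, 5, 8 and 13, and 0.0816%, 0% and 0.0324% in Spp1-high clusters 1, 3 and 11.

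**Figure D3:**
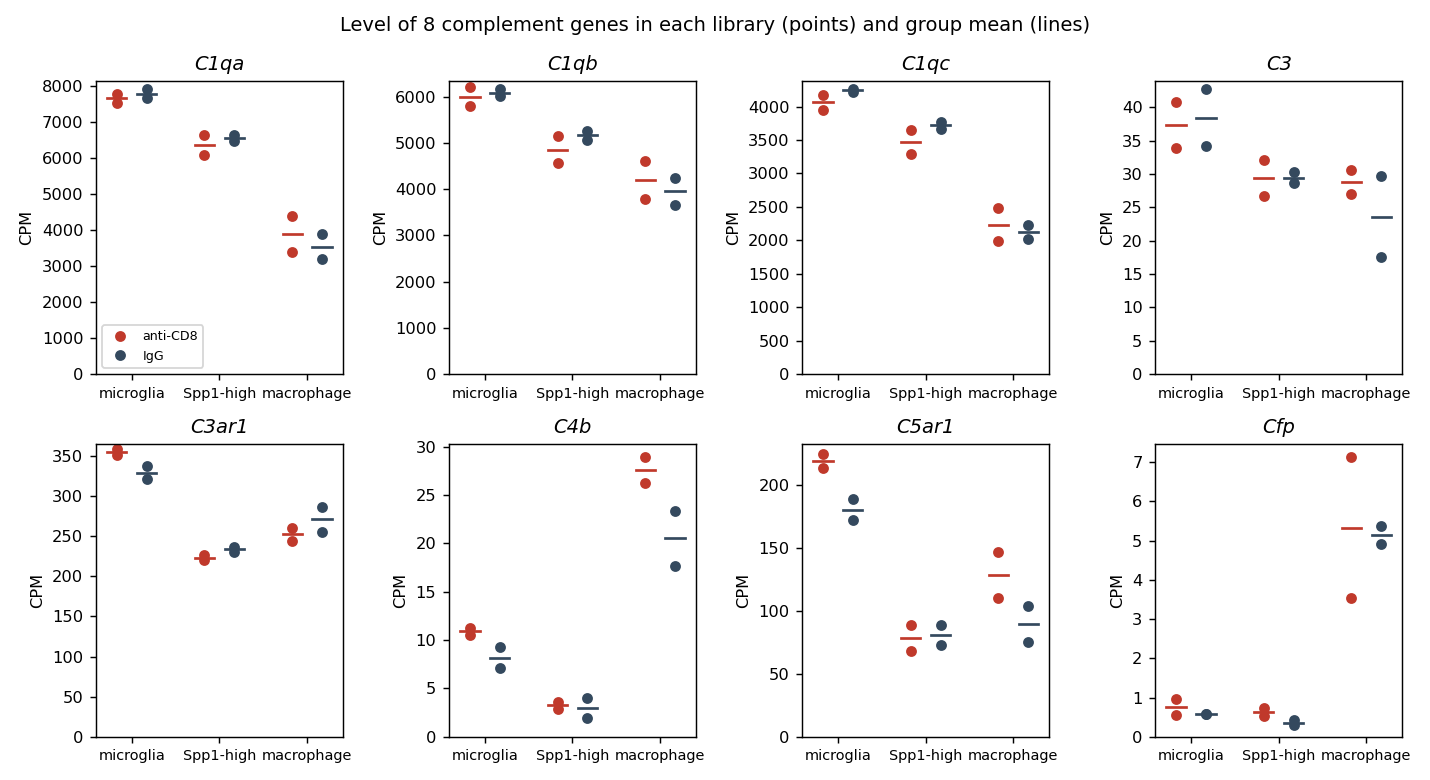
Level in CPM (vertical axes, from 0) of 8 genes in microglia, Spp1-high myeloid cells and macrophages; points are libraries (anti-CD8 left and red, IgG right and dark blue) and lines are group means. In microglia both anti-CD8 libraries lie above both IgG libraries for C5ar1 (213 and 225 against 172 and 189 CPM) and C4b (10.6 and 11.3 against 7.08 and 9.26 CPM), differences that did not pass the adjusted test.

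Macrophages showed the same direction for the same pair of genes, again without a call. C5ar1 had 147 and 110.3 CPM in macrophages of anti-CD8 libraries and 75.3 and 104 CPM in those of IgG libraries. The difference was 0.46 ± 0.15 (unadjusted p = 0.0127, adjusted p = 0.925). C5ar1 was called without the filter on low expression (adjusted p = 0.00558), where 46 genes were called higher and 57 lower of 23592 tested. In the smaller macrophage class at a clustering resolution of 2 the C5ar1 level was higher in every library, 296 and 270.2 CPM in anti-CD8 libraries and 233 and 259 CPM in IgG libraries. That class, also richer in C4b, had 114 and 135 cells in anti-CD8 libraries, where the main class had 434 and 533. In IgG libraries it had 54 and 88, where the main class had 274 and 414. The part of this makeup in the C5ar1 and C4b differences was not tested. C4b, with the values above, differed by 0.37 ± 0.15 (unadjusted p = 0.0283, adjusted p = 0.925). C1qa (0.09 ± 0.12), C1qb (0.04 ± 0.10) and C1qc (0.02 ± 0.11) were within their standard errors. None of the 8 genes tested was called, where 0.00808% of 12377 genes were, and 2 of the 8 did not overlap, where 36.3% of all genes did not. At an unadjusted p under 0.05 there were 659 genes, 2 of them members, and DESeq2 called 3 genes.

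In Spp1-high myeloid cells C5ar1 differed by -0.08 ± 0.12 and C4b by 0.10 ± 0.29, each by less than its standard error. C3ar1 differed by -0.11 ± 0.05 (unadjusted p = 0.067 in edgeR's test). The largest difference was that of Cfp, 0.75 ± 0.36 (unadjusted p = 0.0687 in edgeR's test), at a mean of 0.495 CPM over the 4 libraries. None of the 8 genes tested was called by edgeR's test, where 0% of 15778 genes were; 1118 genes, none of them members, passed an unadjusted p under 0.05 and DESeq2 called 24 genes. Groups did not overlap for 3 of the 8 genes (Cfp higher, C1qc and C3ar1 lower), where 40.1% of all genes did not.

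The difference of the antibody effect between classes was tested directly, with the library as a block. Between microglia and Spp1-high cells it was 0.16 ± 0.05 for C3ar1 (unadjusted p = 0.00842, adjusted p = 0.664) and 0.31 ± 0.12 for C5ar1 (unadjusted p = 0.0175, adjusted p = 0.729), both more positive in microglia. For C4b the difference was 0.24 ± 0.19 (unadjusted p = 0.206, adjusted p = 0.896). The C5ar1 difference moved with 1 library left out. It came to 0.54 when anti-CD8 replicate 1 was dropped and 0.076 when anti-CD8 replicate 2 was. Dropping IgG replicate 1 gave 0.14 and dropping IgG replicate 2 gave 0.54, while that of C3ar1 lay between 0.12 and 0.24 in these fits. None of the 8 genes was called where 0.0807% of 17341 genes were. Between microglia and macrophages the largest unadjusted signal was C3ar1, with 0.21 ± 0.08 (unadjusted p = 0.0235, adjusted p = 0.912), and none of 9 genes was called where 0.012% of 16623 genes were. That of C3ar1 lay between 0.081 and 0.36 with 1 library left out. The same difference was -0.15 ± 0.10 for C1qa and -0.21 ± 0.13 for C5ar1 over all 4 libraries. It was called for both without anti-CD8 replicate 2 (C1qa -0.30, adjusted p = 0.00416, and C5ar1 -0.45, adjusted p = 0.00238). Dropping anti-CD8 replicate 1 gave 0.0018 for C1qa and 0.010 for C5ar1, with no call. Dropping IgG replicate 1 gave -0.0043 for C1qa and -0.083 for C5ar1, and dropping IgG replicate 2 gave -0.29 for C1qa and -0.38 for C5ar1, again with no call.

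**Figure D4:**
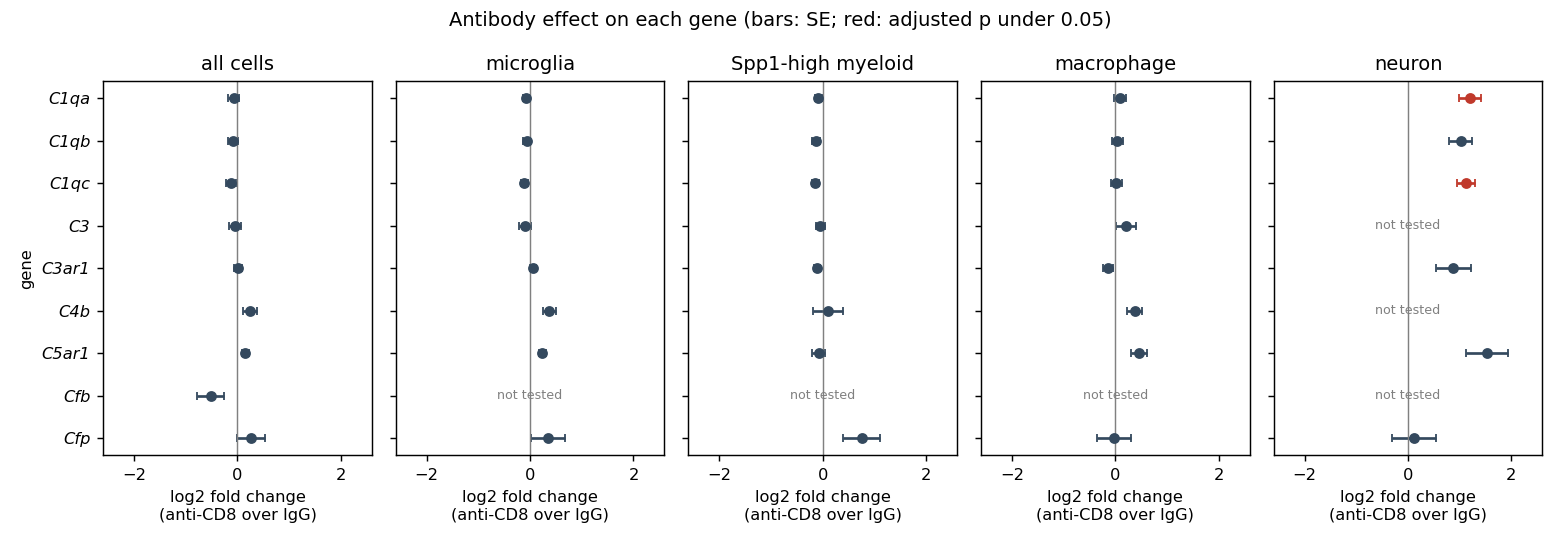
Log2 fold change (anti-CD8 over IgG, horizontal axes) of each gene in all cells and in 4 classes, with the standard error as bars and red for an adjusted p under 0.05 in edgeR's test. In all cells and the myeloid classes the C1q chains lie near 0. Some other genes lie further off, such as Cfp in Spp1-high cells (0.75 ± 0.36), Cfb in all cells (-0.52 ± 0.26) and C5ar1 in macrophages (0.46 ± 0.15). C1qa and C1qc in neurons are the only called points.

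Neurons gave the only calls among the 9 genes. C1qa was at 505 and 759 CPM in neurons of anti-CD8 libraries and at 296 and 249 CPM in those of IgG libraries, and rose by 1.20 ± 0.22 (log2, SE; adjusted p = 0.0444). C1qc was at 306 and 356 CPM in neurons of anti-CD8 libraries and at 166 and 136 CPM in those of IgG libraries, and rose by 1.12 ± 0.17 (adjusted p = 0.0289). C1qb was at 416 and 608 CPM in neurons of anti-CD8 libraries and 283 and 217 CPM in those of IgG libraries, a difference of 1.02 ± 0.22 that did not pass (adjusted p = 0.0701). Of 6 genes tested 2 were called, both higher, where 0.832% of 13943 genes were called and 0.559% were called and higher, and 5 of 6 did not overlap, where 38.7% of all genes did not.

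Microglial markers moved with C1q in these neurons. The summed level of 10 microglia markers, 1 of which was at 0, was 272 and 407 CPM in neurons of anti-CD8 libraries and 177 and 164 CPM in those of IgG libraries. Markers of other classes differed as well, with 8 endothelial markers summing to 322 and 203 CPM in neurons of anti-CD8 libraries and 38.7 and 133 CPM in those of IgG libraries. For 8 pericyte and smooth muscle markers the sum was 129 and 13.5 CPM in anti-CD8 libraries and 6.32 and 4.05 CPM in IgG libraries. The part of these RNAs in the calls was not tested. C1qa UMIs per microglia marker UMI were 1.86 and 1.87 in neurons of anti-CD8 libraries and 1.68 and 1.52 in those of IgG libraries. In microglia themselves they were 1.64 and 1.78 in anti-CD8 libraries and 1.82 and 1.70 in IgG libraries. Neurons of both anti-CD8 libraries were above every library of microglia. Those of IgG replicate 2 were below every one, and those of IgG replicate 1 were within their range. The median neuron had 1 and 2 C1qa UMIs in anti-CD8 libraries and 1 and 1 in IgG libraries. A small number of neurons had 40 or more C1qa UMIs, 9 of 119 and 11 of 157 in anti-CD8 libraries and 2 of 91 and 5 of 172 in IgG libraries. They held 88.2% and 79.2% of the C1qa UMIs of neurons in anti-CD8 libraries and 81.9% and 71.6% in IgG libraries. The neurons below 40 C1qa UMIs had C1qa at 66.9 and 184 CPM in anti-CD8 libraries and 57.2 and 74.8 CPM in IgG libraries. The groups overlapped, but anti-CD8 replicate 2 was above the other 3 libraries there too. A cut on C1qa itself lowers the C1qa that remains, so these values do not bear on the call. Neurons without any microglia marker UMI numbered 30 and 37 in anti-CD8 libraries and 18 and 48 in IgG libraries. Their C1qa was at 65.6 and 64.8 CPM in anti-CD8 libraries and 79.2 and 58.5 CPM in IgG libraries, and the groups overlapped. C1qc in the same cells was at 38.1 and 36.8 CPM in anti-CD8 libraries and 39.6 and 38.6 CPM in IgG libraries, lower in both anti-CD8 libraries. These cells were chosen by markers that moved with C1q, so their values do not bear on the calls either. Without doublet removal neither gene was called (C1qa 0.93, adjusted p = 0.229, and C1qc 0.84, adjusted p = 0.212). With a stricter cell filter C1qa was not called (adjusted p = 0.0612), and DESeq2 called C1qb as well.

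**Figure D5:**
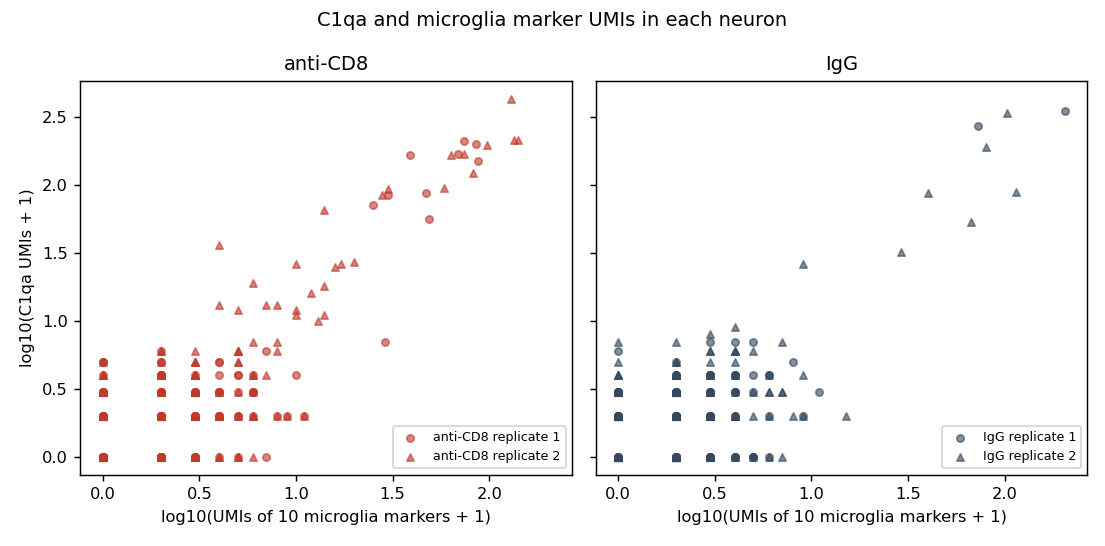
C1qa UMIs against the UMIs of 10 microglia markers in each neuron, both as log10(UMIs + 1), with anti-CD8 libraries in the left panel and IgG libraries in the right panel. Cells with 40 or more C1qa UMIs, 9 and 11 in anti-CD8 libraries and 2 and 5 in IgG libraries, lie at the top, and below them neurons run up to 35 C1qa UMIs in anti-CD8 replicate 2 and 31 in IgG replicate 2.

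In the remaining classes tested, endothelial, ependymal, pericyte/smooth muscle, T cell, interferon-high and proliferating myeloid cells and the unnamed clusters 4, 10, 16, 21 and 22, none of the 9 genes was called by edgeR's test or by DESeq2. Called among all genes were 0.611% in T cells, 0.116% in proliferating myeloid cells, 0.00816% in pericyte/smooth muscle cells, 0.00701% in ependymal cells and 0% in the other 7 classes. By edgeR's test the lowest p-value was that of C5ar1 in ependymal cells, with 2.02 and 2.19 CPM in anti-CD8 libraries and 6.97 and 4.13 CPM in IgG libraries (-1.43 ± 0.45, unadjusted p = 0.00858, adjusted p = 1). The next was C4b in pericyte/smooth muscle cells, with 2.93 and 6.13 CPM in anti-CD8 libraries and 13.2 and 8.15 CPM in IgG libraries (-1.30 ± 0.43, unadjusted p = 0.00925, adjusted p = 0.844). Cfb in endothelial cells, with the UMIs given above, differed by -1.14 ± 0.43 (unadjusted p = 0.0231, adjusted p = 1). C3ar1 in proliferating myeloid cells, with 291 and 233 CPM in anti-CD8 libraries and 187 and 219.9 CPM in IgG libraries, differed by 0.35 ± 0.15 (unadjusted p = 0.035, adjusted p = 0.751). Groups did not overlap for 4 of 7 members tested in pericyte/smooth muscle cells, where 33.5% of all genes did not, 3 of 7 in interferon-high cells (32.2%), 3 of 6 in proliferating myeloid cells (34.5%), and 2 of 8 in endothelial cells (32.9%). The count was 1 of 8 in ependymal cells (26.4%), 1 of 8 in cluster 4 (38.6%), 1 of 6 in cluster 10 (27.4%) and 1 of 4 in cluster 16 (24.8%). Groups overlapped for all members tested in T cells (41.7%) and clusters 21 (28.3%) and 22 (35.5%). The 4 pairs of gene and class given with p-values above were the only ones with an unadjusted p under 0.05 in these classes, where between 41 and 1201 genes had one.

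The rest of the pathway was read as 57 other genes, from C1 proteases to membrane regulators. In all cells 43 of them were tested and in microglia 28, and none rose or fell in either by edgeR's test at an adjusted p under 0.05. Upstream of C3, C1ra and C1s1, the proteases bound to C1q, stood at 2.00 ± 0.194 and 1.13 ± 0.291 CPM in all cells (SD, 4 libraries), and C2 at 0.889 ± 0.0851 CPM. Colec12, a scavenger receptor with a collectin domain, had the strongest unadjusted signal of the list in microglia, with 105 and 91.0 CPM in anti-CD8 libraries and 153 and 127 CPM in IgG libraries (-0.56 ± 0.10, adjusted p = 0.113). DESeq2 called it (adjusted p = 6.1e-05). Of the C3 side, Hc, which encodes C5, was found in ependymal cells at 46.5 and 41.6 CPM in anti-CD8 libraries and 36.1 and 45.7 CPM in IgG libraries. The receptors for C3 fragments were high in all cells together, with Itgb2 at 206 ± 7.96 CPM, Itgam at 170.2 ± 6.84 CPM and Itgax at 96.1 ± 8.46 CPM. So was Clu, a soluble regulator, at 83.6 ± 12.8 CPM. C5ar2, the second receptor for C5a, stood at 8.82 ± 0.484 CPM, and the terminal pathway, which forms the membrane pore, was at 0.747 ± 0.0804 CPM or less per gene. Cfd, the protease that cleaves factor B, stood at 0.00692 ± 0.00576 CPM.

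In neurons 2 of 23 tested pathway genes rose and none fell, where 0.559% of all genes were called and higher. One of them was Itgb2, the beta chain of the receptors for C3 fragments, which was at 22.3 and 21.7 CPM in neurons of anti-CD8 libraries and 8.30 and 8.82 CPM in those of IgG libraries (1.33 ± 0.25, adjusted p = 0.0459). Its level was higher in microglia, at 204 and 197 CPM in anti-CD8 libraries and 208 and 213 CPM in IgG libraries. The part of microglial RNA in the neuron sums was not tested for Itgb2.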

How the data were processed

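The authors deposited UMI counts for 4 libraries, 1 value for a gene in a cell, which were used as they stand. The submitters' processing notes name Cell Ranger 7.1.0 and the GRCm39 genome. Which annotation was used, and whether reads in introns counted, is not given in the sources used here. UMI totals were 152457679 and 170539226 in anti-CD8 libraries and 153016369 and 152625351 in IgG libraries. Reads of near-identical genes may be lost or split by such counting.

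A cell was kept from 300 genes upward and up to 20% mitochondrial UMIs, and the barcodes with the highest doublet scores were removed at a rate of 0.8% per 1000 cells. Leiden clusters came from scanpy 1.11.5 with leidenalg 0.10.2 (Python 3.11.15; 3000 variable genes, 30 components, 15 neighbours, resolution 1, 30 clusters), leaving out the 66 complement genes, Cd8a, Cd8b1 and T-cell receptor, immunoglobulin, some sex-linked and mitochondrial genes. Clusters were named from marker lists. Clusters 4 and 10 met the microglia list, with 8 and 9 of its 10 markers, where 5 were needed. They stayed unnamed because other markers led in cluster 4 and cluster 10 was shallow. The other unnamed clusters each had 2 best lists that scored too close to each other. UMIs were summed per library and class. Classes with 20 or more cells in every library were tested with edgeR 4.0.16 in R 4.3.3 (quasi-likelihood test, TMM scaling, expression filter, Benjamini-Hochberg over all genes tested, 2 libraries against 2, no covariate), after a check on simulated data, and standard errors were derived from the test. DESeq2 1.42.0 was an alternative. Shares of cells used cells thinned to 2000 UMIs.

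All 9 genes were tested wherever they passed the expression filter, but not every value is printed for every class. Other pathway genes were named where called or among the 3 highest of their role. So were the 2 genes most similar to each of the 9. Some genes that these rules select are not reported here. The members and lists were chosen with earlier results of these data known. Alternatives were DESeq2, library totals, no expression filter, a stricter cell filter (500 genes, 10%), no doublet removal, resolution 2, leaving out the interferon-high cluster or 1 library, and a replicate block. Counts of UMIs cover sampling error only.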

Additional observations from a re-analysis of the deposited data

Results flagged for a closer look

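Several genes had groups that did not overlap in opposite directions in different classes, each value a log2 fold change of anti-CD8 over IgG. The differences between classes were not tested, except for microglia against Spp1-high myeloid cells and against macrophages, where no member was called. C1qa was higher in both anti-CD8 libraries in neurons (1.20) and in the interferon-high cluster (0.058), and lower in both in pericyte/smooth muscle cells (-0.25) and proliferating myeloid cells (-0.037). The median pericyte/smooth muscle cell held 1 C1qa UMI in each library. Such cells with 40 or more held 80.3% and 77.4% of these UMIs in anti-CD8 libraries and 85.1% and 81.4% in IgG libraries. Their part in the difference was not tested. C1qc was higher in neurons (1.12) and lower in Spp1-high cells (-0.15), cluster 10 (-0.13), cluster 4 (-0.11), microglia (-0.11), pericyte/smooth muscle cells (-0.22) and proliferating myeloid cells (-0.057). C3ar1 was higher in cluster 16 (1.05), neurons (0.87), endothelial cells (0.59), proliferating myeloid cells (0.35), the interferon-high cluster (0.14) and microglia (0.061), and lower in Spp1-high cells (-0.11) and pericyte/smooth muscle cells (-0.40). C4b was higher in macrophages (0.37) and microglia (0.37) and lower in pericyte/smooth muscle cells (-1.30). C5ar1 was higher in neurons (1.53), macrophages (0.46) and microglia (0.23) and lower in ependymal cells (-1.43). Between 24.8% and 41.7% of all genes tested in a class had groups that did not overlap. The count of members beside that share is given for each class above. The genes listed here were picked for not overlapping in opposite directions, and how many of all genes do the same was not counted.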

How the results depend on the processing

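Most alternatives kept the direction of the members and the side of the threshold. Of the log2 fold changes of members in all cells, microglia, Spp1-high cells and macrophages, and of the C1q chains in neurons, 366 alternative values were the same in both respects, 27 reversed, 8 passed the threshold newly and 3 no longer passed. Reversals concerned values that were not called. C3 in all cells came to 0.00028 without the interferon-high cluster, C3 in macrophages to -0.0026 at resolution 2, and Cfp in macrophages to 0.012 with library totals and 0.81 at resolution 2. With 1 library left out, the range was -0.15 to 0.015 for C1qa, -0.21 to 0.11 for C3, -0.057 to 0.079 for C3ar1 and -0.0071 to 0.56 for Cfp in all cells; -0.10 to 0.26 for C1qa, -0.10 to 0.16 for C1qb, -0.14 to 0.16 for C1qc, -0.075 to 0.63 for C3 and -0.57 to 0.42 for Cfp in macrophages; -0.25 to 0.082 for C3 and -0.11 to 0.71 for Cfp in microglia; and -0.19 to 0.085 for C3, -0.33 to 0.71 for C4b and -0.29 to 0.10 for C5ar1 in Spp1-high cells. The cause was not tested.

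Members called changed under few settings outside neurons. In neurons 2 were called in the main fit and 3 with DESeq2 or the replicate block. The neuron count also moved when 1 library was left out. Without the expression filter 1 was called in microglia and 1 in macrophages, both C5ar1, and 5 of 8 tested in neurons. Of all genes, 184 were then called higher and 176 lower of 29600 in microglia. In macrophages these were 46 and 57 of 23592, and in neurons 513 and 253 of 26997. A stricter cell filter left 1 in neurons and no doublet removal left 0. With 1 library left out 0 to 1 was called in ependymal cells (C3, without IgG replicate 2) and 0 to 2 differed between microglia and macrophages.

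Counts of all genes called moved more. With DESeq2 they were 65 in all cells, 57 in microglia, 24 in Spp1-high cells, 3 in macrophages, 101 in T cells, 31 in cluster 4, 6 in cluster 21, 12 in cluster 22, 4 in endothelial, 9 in ependymal and 4 in pericyte/smooth muscle cells. Without the expression filter they were 360 in microglia, 25 in Spp1-high cells, 103 in macrophages, 766 in neurons, 573 in T cells, 134 in endothelial, 135 in ependymal, 96 in pericyte/smooth muscle, 144 in proliferating myeloid and 28 in interferon-high cells, and 276, 11, 2, 50 and 131 in clusters 4, 10, 16, 21 and 22. With library totals only they were 5 in microglia, 2 in cluster 4, 0 in pericyte/smooth muscle and 19 in proliferating myeloid cells. A stricter cell filter gave 67 in neurons, 2 in ependymal cells and 0 in macrophages, and no doublet removal 14 in neurons, 0 in ependymal cells, 2 in cluster 4, 2 in cluster 10 and 1 in cluster 16. Resolution 2 gave 0 in microglia, 5 in Spp1-high cells, 6 in macrophages and 0 in T cells, and microglia with the interferon-high cluster added gave 0. With 1 library left out the ranges were 0 to 8 in all cells, 22 to 110 in microglia, 10 to 127 in Spp1-high cells, 1 to 50 in macrophages, 331 to 414 in neurons, 103 to 415 in T cells, 0 to 215 in endothelial, 0 to 172 in ependymal, 2 to 50 in pericyte/smooth muscle, 7 to 172 in proliferating myeloid and 8 to 34 in interferon-high cells, and 11 to 34, 4 to 57, 0 to 11, 0 to 44 and 13 to 141 in clusters 4, 10, 16, 21 and 22.

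Deviations of same-numbered libraries correlated by 0.03 in all cells, 0.03 in microglia, 0.04 in Spp1-high cells and -0.02 in macrophages. With 2 libraries per group these values cannot show whether replicate numbers pair the libraries. With the replicate block 248 genes were called in microglia, 76 in Spp1-high cells, 4 in macrophages, 351 in neurons, 39 in T cells, 11 in endothelial, 56 in ependymal, 71 in pericyte/smooth muscle and 23 in proliferating myeloid cells, 24 in cluster 4 and 7 in cluster 10. Low counts of Cfb and Cfp allow little precision.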

Other observations

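At a clustering resolution of 2 an astrocyte cluster of 22 and 103 cells in anti-CD8 libraries and 9 and 44 cells in IgG libraries separated, an alternative chosen after seeing the data. Its C3 was 422 and 226 CPM in anti-CD8 libraries and 8.37 and 167 CPM in IgG libraries, where IgG replicate 1 rested on 1 UMI. Its C4b was 371 and 191 CPM in anti-CD8 libraries and 142 and 408 CPM in IgG libraries. An oligodendrocyte precursor cluster of 34 and 26 cells in anti-CD8 libraries and 11 and 4 cells in IgG libraries had C4b at 306 and 298 CPM in anti-CD8 libraries and 278 and 485 CPM in IgG libraries, with C3 at 11.7 and 0 CPM in anti-CD8 libraries and 9.60 and 0 CPM in IgG libraries.

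Neutrophils, 5 and 6 cells in anti-CD8 libraries and 1 and 4 cells in IgG libraries, held 15 and 14 C5ar1 UMIs in anti-CD8 libraries and 3 and 18 in IgG libraries, and no C3ar1 UMI in any library.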
